A study of Xenopus laevis with 32 samples.

Results

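Translation elongation factors and the 42Sp proteins of the frog oocyte were followed through meiotic maturation of Xenopus laevis oocytes. The genes were chosen by name alone: every entry whose name, in lower case, begins with eef1a, eef1b, eef1d, eef1g, eef2 (eef2k excepted) or 42sp. This gave 11 gene names of 18115 in the 3 deposited tables together. They are 42sp43.L, 42sp50.L, eef1a1.L, eef1a1o.L, eef1a1o.S, eef1b2.L, eef1d.L, eef1g.L, eef1g.S, eef2.1.L and eef2.1.S, where L and S mark the homeologous copies on the long and short subgenomes. RNA levels were listed for 10 of the names, polysome shares for 5, and poly(A) sites for 10.

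Oocytes were sampled at 5 stages. Stage VI oocytes had received no progesterone, the steroid hormone that starts maturation, and PG90 oocytes were taken 90 minutes after it. The later stages were meiosis I (MI), interkinesis, which separates both meiotic divisions, and meiosis II (MII). Polyadenylated RNA of each stage was sequenced from 3 fractions of a sucrose gradient, polysomes, monosomes and the unbound mRNP (messenger ribonucleoprotein), in 2 libraries each, 30 libraries in all. Stage VI oocytes were also used for 2 lanes of PAS-seq, a method that reads where polyadenylated RNA ends. The strain, the number of frogs and how oocytes were pooled are not given in the labels, so p-values measure only the spread between these columns, which may be technical.

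Elongation factor eEF1A carries aminoacyl-tRNA to the ribosome as a complex with GTP, the eEF1B subunits (the exchange proteins eEF1B2 and eEF1D and the scaffold subunit eEF1G) reload it with GTP, and eEF2 moves the ribosome along the message after each peptide bond. Young Xenopus oocytes store 5S ribosomal RNA and tRNA in a 42S particle before they build ribosomes. Of its proteins, 42Sp50 (listed by RefSeq also as Thesaurin-A) is a relative of eEF1A that holds tRNA, whereas 42Sp43 is a zinc finger protein that binds 5S RNA, like transcription factor TFIIIA, and is not an elongation factor. In vertebrates the mRNAs of elongation factors and ribosomal proteins belong to a class with a terminal oligopyrimidine tract, whose translation is regulated together. The stage VI libraries are of fully grown oocytes, well past the growth phase in which the 42S particle is abundant.

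All 11 names matched an entry of the RefSeq table for assembly Xenopus_laevis_v10.1. There 42Sp48 is a synonym of eef1a1o.S, the oocyte form of eEF1A. The name eef1d.L is both the symbol of the copy on chromosome 6L and a synonym of eef1d.S on 6S. Genes taken as markers of oocytes and of ovarian somatic cells were looked up in the level table. There 9 of 10 oocyte markers were listed, and 2 of 10 genes taken as markers of ovarian somatic cells. Those 2 were cyp17a1.L, whose stage VI levels were 45.5 (x) and 11.7 (y), and vim.L, with 30.3 and 22.0. Stage VI levels of the oocyte markers ran from 4.86 (gdf9.S) to 7597 (h1foo.S) in x. In y they ran from 1.64 (gdf9.L) to 4228 (h1foo.S). Both genes lay within these ranges in both sets, so the levels do not separate the 2 groups of markers. Whether cyp17a1.L and vim.L mark somatic cells in the Xenopus ovary was not tested. Whether the RNA of cyp17a1.L and vim.L came from somatic cells or from the oocyte was not tested. Their part in the results was not tested either.

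The polysome share is the authors' fraction of a gene's RNA found in polysomes, where messages carry several ribosomes, and what the whole comprises is not stated. It was given in 2 columns per stage, x and y, for 6497 genes. In these bulk samples, fewer oocytes with a loaded message and less loading in every oocyte cannot be told apart. The sequencing depth behind shares and levels is unknown. The median share of all genes was 0.332 in x and 0.321 in y at stage VI and 0.233 and 0.268 at MII.

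The oocyte 5S RNA-binding protein 42Sp43 had a low polysome share, under the median of all genes in all 10 columns. In the order stage VI, PG90, MI, interkinesis, MII, which all series of values below follow, the shares of 42Sp43.L in column x were 0.210, 0.134, 0.159, 0.208 and 0.108. In column y the shares of 42Sp43.L were 0.178, 0.229, 0.136, 0.151 and 0.0953. In each of the 10 columns 42Sp43.L lay below all 4 elongation factor genes with shares, and both MII columns were its lowest. At stage VI its mean share was 0.194 ± 0.0227 (SD, n = 2), and 0.477% of all genes had a lower mean. At MII the mean was 0.102 ± 0.00876 (SD, n = 2), with 0.185% of genes lower. Ranks in single columns were less extreme in x than in y at 4 of the 5 stages. In x 5.54%, 0.939%, 5.59%, 24.9% and 2.19% of genes were lower, and in y 0.262%, 2.80%, 0.400%, 1.68% and 0.323%.

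By mean share, the exchange complex and eEF2 genes with shares began maturation in the upper part of the distribution. In single stage VI columns the share of genes lower ran from 52.9% (eef1g.L in x) to 96.6% (eef1b2.L in x). For eef1b2.L, encoding the exchange subunit eEF1B2, the shares in column x were 0.511, 0.515, 0.292, 0.359 and 0.376. In column y they were 0.349, 0.362, 0.335, 0.385 and 0.204. The MII columns of eef1b2.L lay far apart and overlapped those of stage VI, and its mean went from 0.430 ± 0.114 (SD, n = 2) to 0.290 ± 0.121 (SD, n = 2).

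For eef1g.L, which encodes the scaffold subunit eEF1G, the shares in column x were 0.339, 0.321, 0.230, 0.213 and 0.191. In column y they were 0.393, 0.311, 0.345, 0.258 and 0.203. Both MII columns lay below both stage VI columns, and column x decreased at each step. The sister copy eef1g.S had 0.416, 0.379, 0.294, 0.288 and 0.265 in column x. In column y eef1g.S had 0.440, 0.349, 0.425, 0.362 and 0.328. Again the MII columns did not overlap those of stage VI, while the MI value in column y lay between the stage VI values.

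For eef2.1.S, encoding the translocase eEF2, the shares in column x were 0.454, 0.475, 0.232, 0.326 and 0.227. In column y they were 0.377, 0.326, 0.305, 0.226 and 0.191. The values at MI, interkinesis and MII were all below both stage VI values, and those at PG90 were on either side of the lower stage VI value. At stage VI, 88.7% of all genes had a lower mean share than eef2.1.S, and at MII 28.3% did. For eef1g.L the corresponding percentages were 70.6% and 22.5%, for eef1g.S 91.7% and 66.0%, and for eef1b2.L 92.1% and 64.0%. Single MII columns differed most for eef1b2.L, with 87.1% of genes lower in x and 24.4% in y. For eef2.1.S they gave 47.0% and 18.3%, for eef1g.L 29.3% and 23.6%, and for eef1g.S 63.6% and 67.2%. In order of the stage VI mean the genes ran eef1b2.L, eef1g.S with 0.428 ± 0.0172 (SD, n = 2), eef2.1.S with 0.415 ± 0.0540 (SD, n = 2), eef1g.L with 0.366 ± 0.0380 (SD, n = 2) and 42Sp43.L. The ranges of the x and y values of the first 4 overlapped those of their neighbours among them, whereas that of 42Sp43.L overlapped none.

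**Figure D1:**
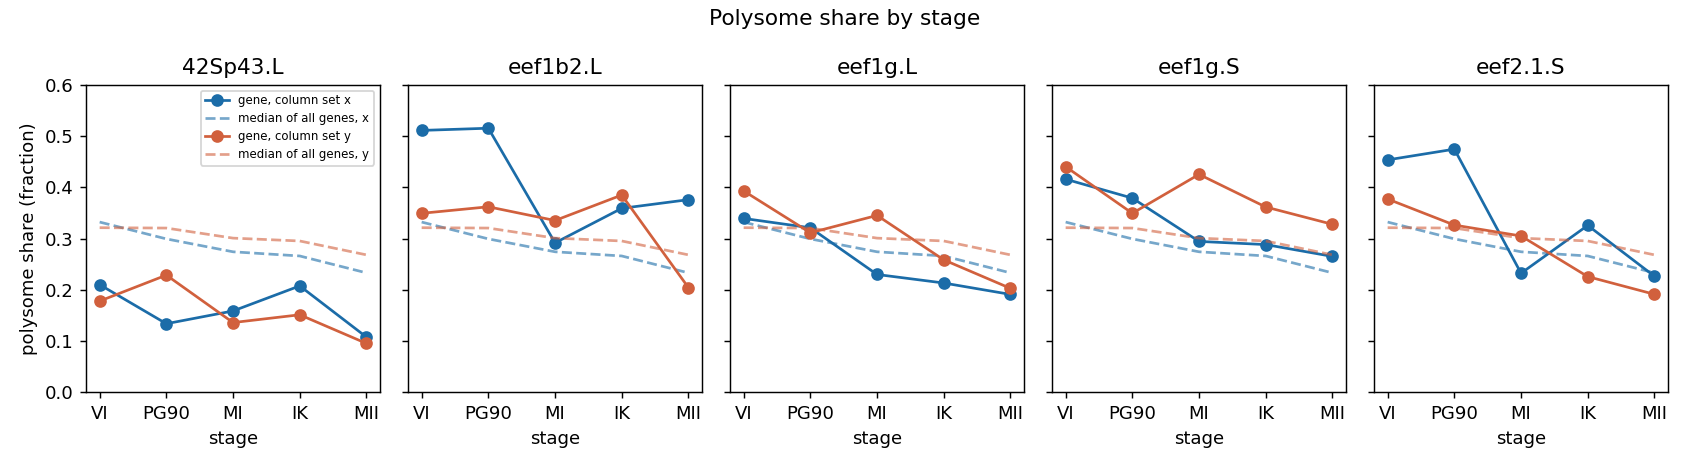
Polysome share (fraction, vertical axis from 0) at each stage (horizontal axis; IK is interkinesis) for the 5 genes with shares. Solid lines with points are the gene in column sets x and y, and dashed lines are the median of all 6497 genes in the same set. All 10 points of 42Sp43.L lie under the dashed lines, from 0.0953 to 0.229, while the other genes start above them at stage VI.

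Between stage VI and MII, none of the 5 genes passed an adjusted p under 0.05 in limma, fitted to log2(share / (1 - share)), called log2 odds, of all 6497 genes. At that threshold 3.82% of all genes were called lower and 0.554% higher. Before adjustment 3 of the 5 had a p under 0.05 (eef1g.L, eef2.1.S and 42Sp43.L), against 32.7% of all genes. The change in log2 odds was -1.43 for eef2.1.S (SE 0.42, limma adjusted p 0.0615) and -1.23 for eef1g.L (SE 0.35, limma adjusted p 0.0563). For 42Sp43.L the change was -1.09 (SE 0.44, limma adjusted p 0.116). The smaller changes were -0.93 for eef1b2.L (SE 0.52, limma adjusted p 0.220) and -0.84 for eef1g.S (SE 0.41, limma adjusted p 0.176). Both eef1g.L and eef2.1.S passed once a block for the column set was added (limma adjusted p 0.0202 and 0.0253), a fit that called 22.1% of all genes lower and 3.36% higher.

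The whole table moved in the same direction, with a median change of -0.57. Relative to that median the 5 genes were at -0.87 (eef2.1.S), -0.67 (eef1g.L), -0.52 (42Sp43.L), -0.36 (eef1b2.L) and -0.27 (eef1g.S), so that between 5.03% and 30.7% of genes had a lower change than each. Within column set x the change of eef2.1.S was -1.50 and within y -1.36, where the medians of all genes were -0.69 and -0.40. For eef1g.L the x change was -1.12 and the y change -1.35, and for 42Sp43.L they were -1.14 and -1.04. In 4 of the 5 genes both MII columns lay below both stage VI columns, which held for 53.5% of all genes, and in 0 of the 5 both lay above, which held for 9.37%. After quantile normalization of the columns the change of 42Sp43.L was -0.09 (limma adjusted p 0.929).

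**Figure D2:**
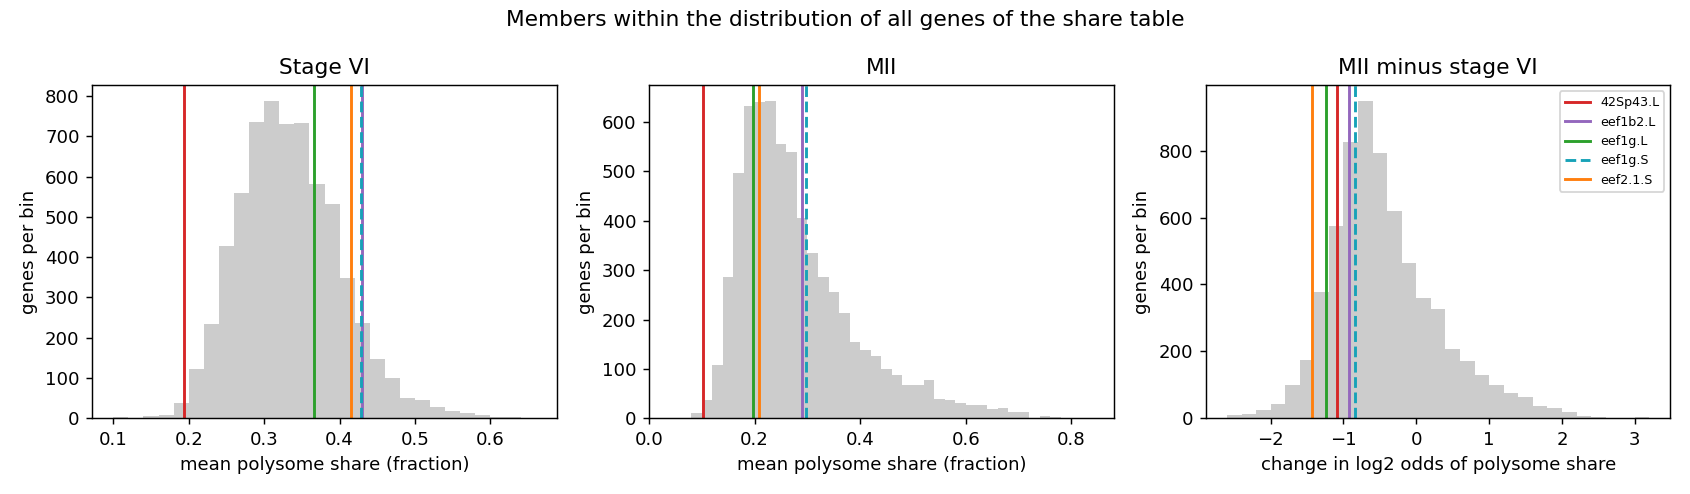
Number of genes per bin (vertical axes) by mean polysome share at stage VI (left) and at MII (middle), and by the change in log2 odds from stage VI to MII (right). Grey bars are all 6497 genes and coloured lines the 5 genes; eef1b2.L and eef1g.S nearly coincide in the left and middle panels. The 42Sp43.L line is at 0.194 and 0.102, at the low edge of both distributions, and the 5 changes run from -1.43 to -0.84.

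At the earlier stages no change passed the test. Against stage VI, 0 of the 5 genes passed the limma adjusted threshold at PG90, MI or interkinesis, nor did any of all genes (0% in either direction), and 0, 1 and 2 of them had an unadjusted p under 0.05, against 0.908%, 11.7% and 16% of all genes. At MI eef2.1.S had the lowest change of the 5, -0.96 (SE 0.42, limma adjusted p 0.419), with -1.46 in column x and -0.46 in y. At interkinesis its change was -0.92 (SE 0.42, limma adjusted p 0.312) and that of eef1g.L was -0.91 (SE 0.35, limma adjusted p 0.268). 42Sp43.L was at -0.15 at interkinesis and changed between interkinesis and MII by -0.94 (SE 0.44, limma adjusted p 0.997), with 3.85% of genes at a lower change. At PG90 all 5 changes lay between -0.39 for eef1g.S and 0.05 for eef1b2.L. At PG90 2 of the 5 genes had both columns below both stage VI columns, at MI 3 and at interkinesis 3, against 21.1%, 38.8% and 41% of all genes, and 0 had both above, against 7.71%, 12.3% and 12.4%. From PG90 to MI, MI to interkinesis and interkinesis to MII, 0 of the 5 passed, as did 0% of all genes. At an unadjusted p under 0.05 in limma 0 of the 5 passed in these steps either, against 4.82%, 3.48% and 4.46%.

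The homeologous pair eef1g.L and eef1g.S could be compared within the same columns. The share of eef1g.S was higher than that of eef1g.L in 10 of 10 columns, by 0.25 to 0.94 in log2 odds with a mean of 0.52 ± 0.21 (SD over 10 columns), 0.50 in column set x and 0.53 in y. The difference was 0.47 in x and 0.28 in y at stage VI and 0.61 and 0.94 at MII. A two-sided exact sign-flip permutation test over the 10 columns gave p = 0.00195, the smallest it can give. Every pair with the same sign in all 10 columns gets this p. The test treats the columns as independent, but the columns of a set may share oocytes. The comparison was also chosen after its values were seen. The p-value therefore cannot decide whether the copies differ, and no conclusion is drawn from it. Of 1299 homeologous pairs in the table, 171 or 13.2% had the same sign in all 10 columns, and 15.7% had a larger mean difference. How reads that match both homeologs were counted is not stated.

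RNA levels were given by the authors as a sum per stage, in a unit that is not stated. The libraries held polyadenylated RNA, so a change in the amount of a message and one in its poly(A) tail cannot be told apart. Whether this also affected the shares was not tested. The scale of the levels differed between the sets, with stage VI medians of 44.7 (x) and 9.53 (y), so changes were read within a set. Levels are not compared between genes, except for the ranges of the markers and the order of homeologs beside their poly(A) reads. Among the names listed once, 9 belonged to these genes, of 11765 in all. In limma on log2 levels with the column set as a term, 0 of the 9 passed an adjusted p under 0.05 at any stage. At MII 1.33% of all names were called lower and 0.612% higher. At PG90, MI and interkinesis 0% were called lower, and 0.0085%, 0.017% and 0% higher. At an unadjusted p under 0.05 there were 0, 1, 1 and 1 of the 9 at PG90, MI, interkinesis and MII, against 3.27%, 14.4%, 23.7% and 30.4% of all names.

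For 42sp43.L the column sets gave level changes of opposite sign. Its values in x were 240, 199, 197, 213 and 174, and in y 58.7, 60.0, 77.3, 70.2 and 67.7. Stage VI was the highest value in x and the lowest in y. The change at MII was -0.13 on the log2 scale (SE 0.20, limma adjusted p 0.693).

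The eEF1A genes were below their stage VI level at MII in both sets. The oocyte form eef1a1o.L had levels of 5875, 6241, 5663, 4531 and 5008 in x and of 320, 278, 542, 261 and 252 in y. Its homeolog eef1a1o.S had 6866, 6564, 7816, 5176 and 5032 in x and 475, 493, 765, 533 and 344 in y. Both copies had their highest y value at MI, 1.70 times stage VI for eef1a1o.L and 1.61 times for eef1a1o.S, whereas the x ratios at MI were 0.964 and 1.14. At MII the log2 change was -0.29 for eef1a1o.L (SE 0.27, limma adjusted p 0.519) and -0.46 for eef1a1o.S (SE 0.21, limma adjusted p 0.204). The x and y values of these copies lay far apart: at stage VI x was 18.4 times y for eef1a1o.L and 14.5 times y for eef1a1o.S, against a median of 4.37, and 98.6% and 97.1% of names had a smaller ratio. How reads that match both copies were counted is not stated, so their separate values are uncertain.

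The more widely expressed form eef1a1.L had levels of 229, 239, 222, 179 and 185 in x and of 84.0, 63.1, 61.9, 57.5 and 51.3 in y. In y every later stage was below stage VI, and in x every later stage but PG90 was. Its change was -0.45 at interkinesis (SE 0.16, limma adjusted p 0.173) and -0.51 at MII (SE 0.16, limma adjusted p 0.101). It had the lowest unadjusted p of the 9 names at MII, 0.0186 in limma. No polysome share was listed for any of the eEF1A genes.

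Within the exchange complex, eef1b2.L was lower at MII in both sets and the eef1g copies were near their stage VI level; the difference between these genes was not tested. The level of eef1b2.L was 374, 393, 373, 273 and 300 in x and 43.4, 23.6, 46.9, 30.3 and 21.7 in y. MII was below stage VI in both sets, with log2 ratios of -0.32 in x and -0.999 in y, and the fitted change was -0.66 (SE 0.29, limma adjusted p 0.184). The level of eef1g.L was 1972, 1864, 2341, 2086 and 1722 in x and 616, 543, 860, 755 and 711 in y. For eef1g.S it was 597, 597, 778, 658 and 640.5 in x and 168, 163, 216, 189 and 181 in y. Both eef1g copies were highest at MI in both sets. The change at MI was 0.37 for eef1g.S (SE 0.13, limma adjusted p 0.306; unadjusted p 0.0231), with 0.38 in x and 0.36 in y, and 0.36 for eef1g.L (SE 0.18, limma adjusted p 0.392). At MII they were close to stage VI, with changes of 0.10 for eef1g.S (SE 0.13, limma adjusted p 0.610) and 0.01 for eef1g.L (SE 0.18, limma adjusted p 0.988). For eef1g.L the 2 sets had opposite signs at MII, -0.20 in x and 0.21 in y.

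The eEF2 genes had discordant column sets at PG90. The level of eef2.1.S was 44.1, 58.8, 52.0, 37.9 and 40.5 in x and 8.47, 5.17, 9.66, 5.91 and 4.71 in y. For eef2.1.L it was 16.8, 24.6, 17.2, 14.1 and 13.9 in x and 5.94, 1.35, 3.73, 2.12 and 1.11 in y. At PG90 the log2 ratio to stage VI was 0.55 in x and -2.14 in y for eef2.1.L, and 0.41 and -0.71 for eef2.1.S. At MII both copies were below stage VI in both sets, with fitted changes of -1.34 for eef2.1.L (SE 0.62, limma adjusted p 0.202) and -0.49 for eef2.1.S (SE 0.30, limma adjusted p 0.319). The sets differed in size, with log2 ratios at MII of -0.27 (x) and -2.42 (y) for eef2.1.L. Of the 9 names only eef2.1.L lay in the lower quartile of levels, where ratios are less certain. With a pseudocount of 1 its fitted change at MII was -0.98. When 1 column at a time was left out, the change of eef2.1.L ranged from -2.19 to -0.49 and that of eef2.1.S from -0.76 to -0.21. Over all 9 names, 2, 1, 5 and 6 were below stage VI in both sets at PG90, MI, interkinesis and MII, against 24.4%, 29.4%, 33.6% and 29.7% of all names. Above it in both sets were 0, 4, 2 and 1, against 31.7%, 34.9%, 37.7% and 38.4%. A change of at least 2-fold in both sets was seen in 0 of the 9 at each stage, against 0.263%, 0.45%, 1.43% and 3.37% of names for lower values and 0.306%, 0.45%, 0.629% and 0.977% for higher ones.

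The exchange subunit eEF1D was listed under a repeated name and was not fitted. The name eef1d.L had 2 rows with different x values and the same y values. In x the rows held 17.4, 10.4, 11.9, 6.37 and 6.41, and 192, 178, 171, 151 and 139, and in y both held 21.6, 32.2, 21.6, 25.7 and 6.38. Every later x value was below stage VI in both rows, and y was below it only at MII, at 0.296 times stage VI. The PAS-seq table has the name under 2 gene numbers as well, on chromosomes 6L and 6S.

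**Figure D3:**
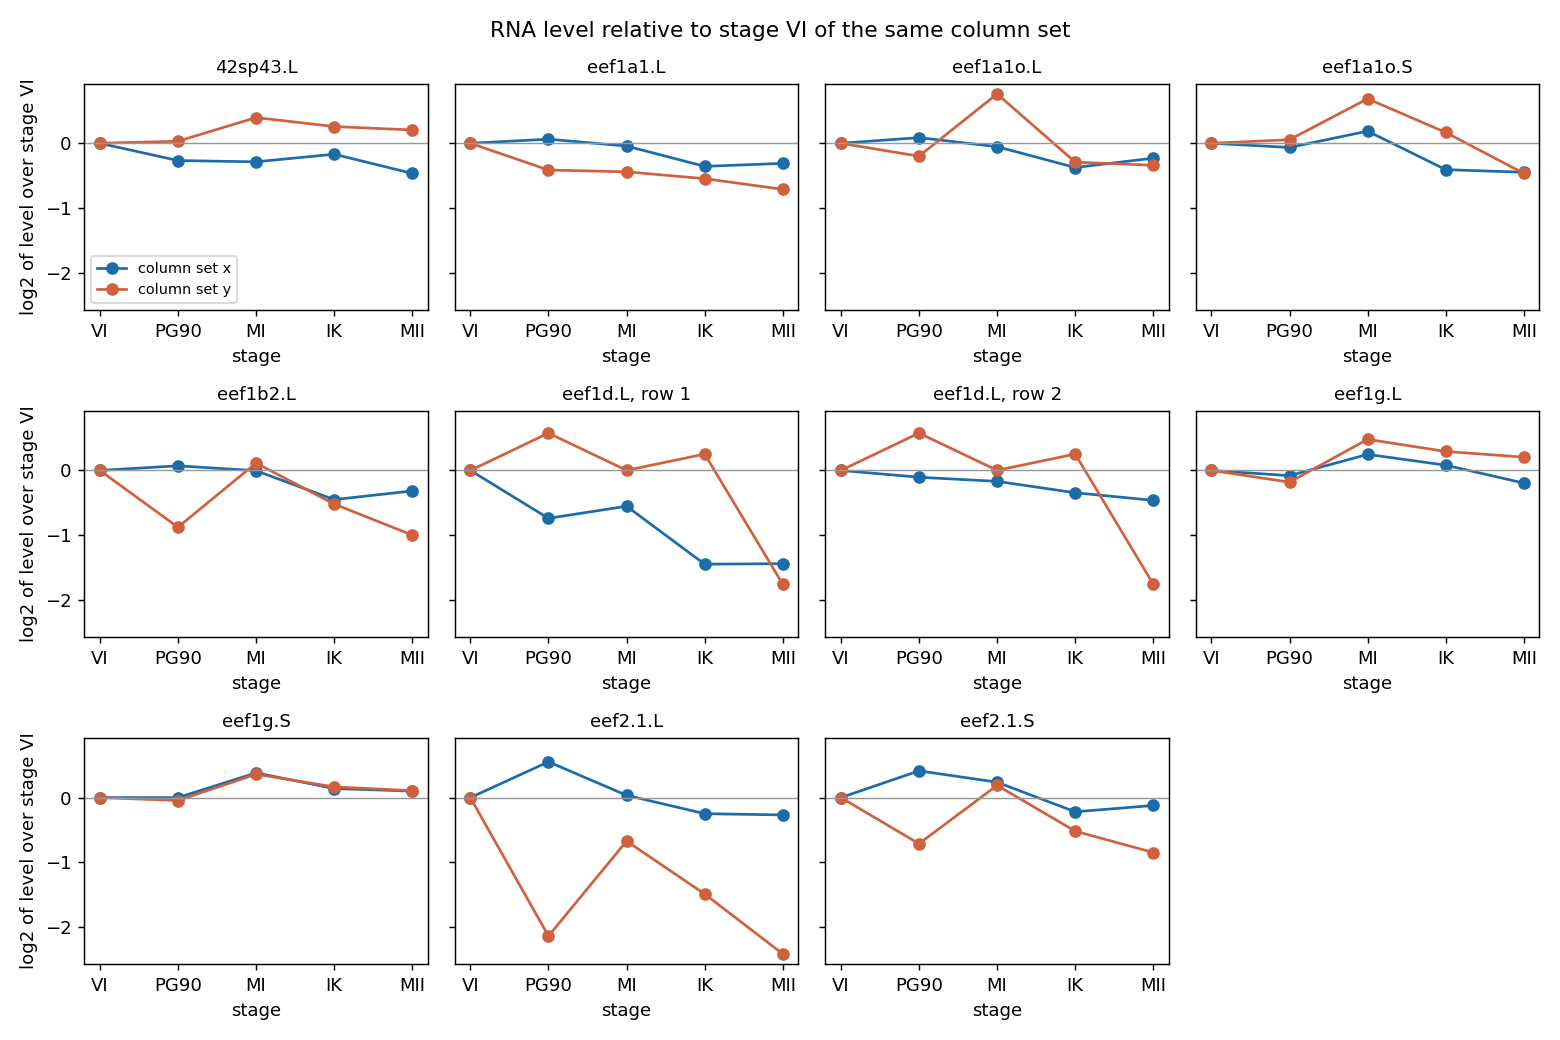
RNA level relative to stage VI of the same column set (log2, vertical axis) at each stage (horizontal axis; IK is interkinesis) for the 10 names with levels; eef1d.L has a panel for each of its 2 rows. Points are single values of column set x or y. The 2 sets overlie each other for eef1g.S, within 0.05 of each other at each stage, and part most for eef2.1.L at PG90, with 0.55 in x and -2.14 in y. The level of eef2.1.L lies in the lower quartile of all names.

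Proteins chosen as possible partners and regulators of elongation factors were described from a list of 33 symbols. The list holds protein methyltransferases, the kinase eEF2K and the enzymes that make diphthamide on eEF2. It also holds valyl-tRNA synthetase, eIF5A with its hypusine enzymes, and the termination and rescue factors. The kinase eEF2K had no row with a share or a fitted level. Shares were available for 8 symbols of the list in 11 rows, and of the diphthamide enzymes only dph2.L had one. At MII 0 rows passed in limma in either direction, beside 3.82% of all genes called lower and 0.554% higher. Of the 11 rows 10 were below 0, as were 76.4% of all genes. The median change in log2 odds of the rows was -0.67 beside -0.57 for all genes. The lowest change was -1.27 for vars.L (SE 0.35, limma adjusted p 0.0552, and 0.0251 with the column-set block), the valyl-tRNA synthetase that binds the eEF1 complex. The highest, and the only one above 0, was 0.49 for mettl21a.S (SE 0.46, limma adjusted p 0.447), a protein methyltransferase. Whether it modifies an elongation factor was not examined here. Levels were available for 19 symbols in 22 rows, of which 0 passed at any of the 4 later stages in limma. Of all names 1.33% were called lower and 0.612% higher at MII, and at most 0.017% in either direction at the stages before it. At MII the 22 rows had a median log2 change of 0.01 beside 0.07 for all names. Their ends were -0.998 for dph3.L (SE 0.26, limma adjusted p 0.0705) and 0.90 for dph7.L (SE 0.26, limma adjusted p 0.0864), both of the diphthamide pathway. Of 4 mitochondrial elongation factors only tsfm.L had a level, with a log2 change of -0.10 at MII (SE 0.17, limma adjusted p 0.731).

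The partners of 5S RNA that had shares fell in polysome share at MII. Of a list of 5 symbols, 2 had shares, in 3 rows, and at MII all 3 rows were called lower in limma, where 3.82% of all genes were. The share of gtf3a.L, which encodes TFIIIA, the transcription factor that binds the 5S genes and 5S RNA, went from 0.338 in x and 0.348 in y at stage VI to 0.147 and 0.173 at MII. It was above 42Sp43.L in each of those 4 columns. The change in log2 odds was -1.46 for gtf3a.L (SE 0.30, limma adjusted p 0.0392), -1.60 for rpl5.L (SE 0.38, limma adjusted p 0.0456) and -1.68 for rpl5.S (SE 0.36, limma adjusted p 0.0415), the last pair encoding the ribosomal protein that binds 5S RNA. The list, gtf3a included, was chosen with earlier results of these data known. Ribosomal protein genes were already known to be lower at MII in these data. The calls of these 3 rows are therefore not independent evidence. After each column was centred on its median the changes were -0.92, -1.06 and -1.14, with adjusted p-values in limma of 0.0929, 0.127 and 0.0900. After quantile normalization they were -0.87, -1.26 and -1.51, with limma adjusted p-values of 0.105, 0.0838 and 0.0532. The direction held in both and the calls did not, whereas with the column-set block all 3 passed (limma adjusted p 0.0171, 0.0181 and 0.0171). The fit with that block called 22.1% of all genes lower. Each call was also lost when any of the 4 columns of stage VI and MII was left out, with changes between -1.89 and -1.31. A difference between 42Sp43.L and these rows was not tested. Levels were available for all 5 symbols in 8 rows, of which 0 passed in limma at any later stage. At MII 1.33% of all names were called lower and 0.612% higher. The MII changes of the 8 rows ran from -3.08 for rpl11.L (SE 1.33, limma adjusted p 0.178) to 0.86 for ssb.L (SE 0.16, limma adjusted p 0.0503), the La protein.

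Over the 10 columns, the share profile most like that of 42Sp43.L, with each column centred on its median, was that of cpamd8.L, with a Pearson r of 0.91 across columns. It was followed by gpatch2-like.S with 0.88 and Xelaev18033217m with 0.86. For the level centred within each set, the nearest names were zc3h7b.L with 0.91, tbca.L with 0.89 and tob2.L with 0.87. These are the highest of all profiles over 10 points that share libraries, and they are given as a description.

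The 3′ ends of these messages were mapped in stage VI oocytes by PAS-seq, with reads of both lanes in 1 column. Counts of 3′ ends do not grow with transcript length, so they are set side by side here. Among the limits are amplification and how reads were assigned to gene copies, which is not stated. Whether sites with few reads are true 3′ ends was not tested. In the pairs eef1a1o, eef1g and eef2.1 the copy with more reads had the lower stage VI level in both column sets. The cause was not tested, and the order of reads between copies is uncertain. No site was listed for eef1a1.L. The 11 gene numbers behind the 10 names held 1900 reads at 49 sites, of 656192 reads at 41982 sites in all. More than 1 site was listed for 9 of the 11, against 64.5% of all genes, most of which had fewer reads than these. The most reads were at eef1a1o.L, 528, more than at 99.7% of all genes. Next came eef1d.L on chromosome 6L with 349, eef1b2.L with 197, eef2.1.L with 181 and eef1a1o.S with 155. eef1g.S had 133, 42sp43.L 108, eef2.1.S 97, eef1g.L 94 and eef1d.L on 6S 53. The tRNA-binding 42sp50.L had 5 reads, all at a single site, with 5.79% of genes lower. The median of all genes was 26 reads.

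Site positions are as the authors list them, in a genome build not given in the sources used here. Upstream and downstream are read along the table's strand column, which is opposite to the strand in its location field at 100% of sites. Of 3216 genes with 3 or more sites and 50 or more reads, the most used site lay in the last 25% of the span of sites along that column in 72.0% and in the first 25% in 13.6%. Intervals are Wilson 95% intervals of counting error only, since no molecular identifiers are described.

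The oocyte eEF1A genes and 42sp43.L ended mainly at 1 site. For 42sp43.L it was at base 2447033 of chromosome 9_10L, minus strand, with 82 of 108 reads or 75.9% (67.1% to 83.0%). Its other 4 sites held 4 to 10 reads each and lay 180 to 5129 nt upstream. The single site of 42sp50.L, at base 144047557 of chromosome 6L, plus strand, rests on 5 reads. For eef1a1o.L the main site, at base 88718517 of chromosome 2L, minus strand, held 447 reads or 84.7% (81.3% to 87.5%), and a second site 68 nt upstream held 49. A further 22 reads of eef1a1o.L lay 6555 nt upstream. For eef1a1o.S the main site was at base 607475 of Scaffold67, minus strand, with 141 reads or 91.0% (85.4% to 94.5%), and 100% where at least 10 reads per site were required.

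Reads of eef1d.L were also concentrated at 1 site per copy. On chromosome 6L the site at base 152939768, plus strand, held 330 of 349 reads or 94.6% (91.7% to 96.5%), and on 6S the only site, at base 126820183, plus strand, held all 53 (93.2% to 100%). Among 3912 genes with at least 50 reads, 8.59% had a higher share at the main site than eef1d.L on 6L, and the median was 54.4%.

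The ends of eef1b2.L were split between distant sites. Its sites at bases 80839747 and 80841709 of chromosome 9_10L, plus strand and 1962 nt apart, held 64 reads each, or 32.5% (26.3% to 39.3%). Between them a site 1498 nt downstream of the first held 33 reads, and 24 reads lay 59 nt upstream of it. The order of the 2 main sites is therefore undecided at this depth.

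The intervals of the main site's share lay apart for the homeologs of eEF1G, and with all sites counted for those of eEF2. They cover counting error in 1 column without replicates, so a difference between the copies beyond these reads was not tested. How reads were assigned to the copies is not stated. In eef1g.S the main site, at base 1561479 of chromosome 4S, plus strand, held 84 of 133 reads or 63.2% (54.7% to 70.9%). In eef1g.L the main site, at base 26393607 of chromosome 4L, minus strand, held 27 of 94 reads or 28.7% (20.6% to 38.6%), and a site 152 nt upstream held 23. The intervals of the 2 copies do not overlap. Sites of 6 to 9 reads also lay 9661 to 12388 nt upstream in eef1g.L. In eef2.1.L the main site, at base 88876534 of chromosome 1L, plus strand, held 157 of 181 reads or 86.7% (81.0% to 90.9%). In eef2.1.S it was at base 77984632 of chromosome 1S, plus strand, with 59 of 97 reads or 60.8% (50.9% to 69.9%), and 17 reads lay 168 nt downstream. These intervals do not overlap either, but with at least 10 reads required per site they do, at 88.7% (83.2% to 92.6%) for eef2.1.L and 77.6% (67.1% to 85.5%) for eef2.1.S. With the same minimum the eef1g intervals stay apart, at 78.5% (69.8% to 85.2%) for eef1g.S and 42.2% (30.9% to 54.4%) for eef1g.L. For eef1d.L on 6L and 6S the intervals overlap in both settings. Those of eef1a1o.L and eef1a1o.S overlap with all sites counted. With at least 10 reads per site they do not, at 86.3% (83.1% to 89.0%) and 100% (97.3% to 100%). How often the intervals of homeologs stay apart over all genes was not computed. The annotation around the sites was not analysed here.

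**Figure D4:**
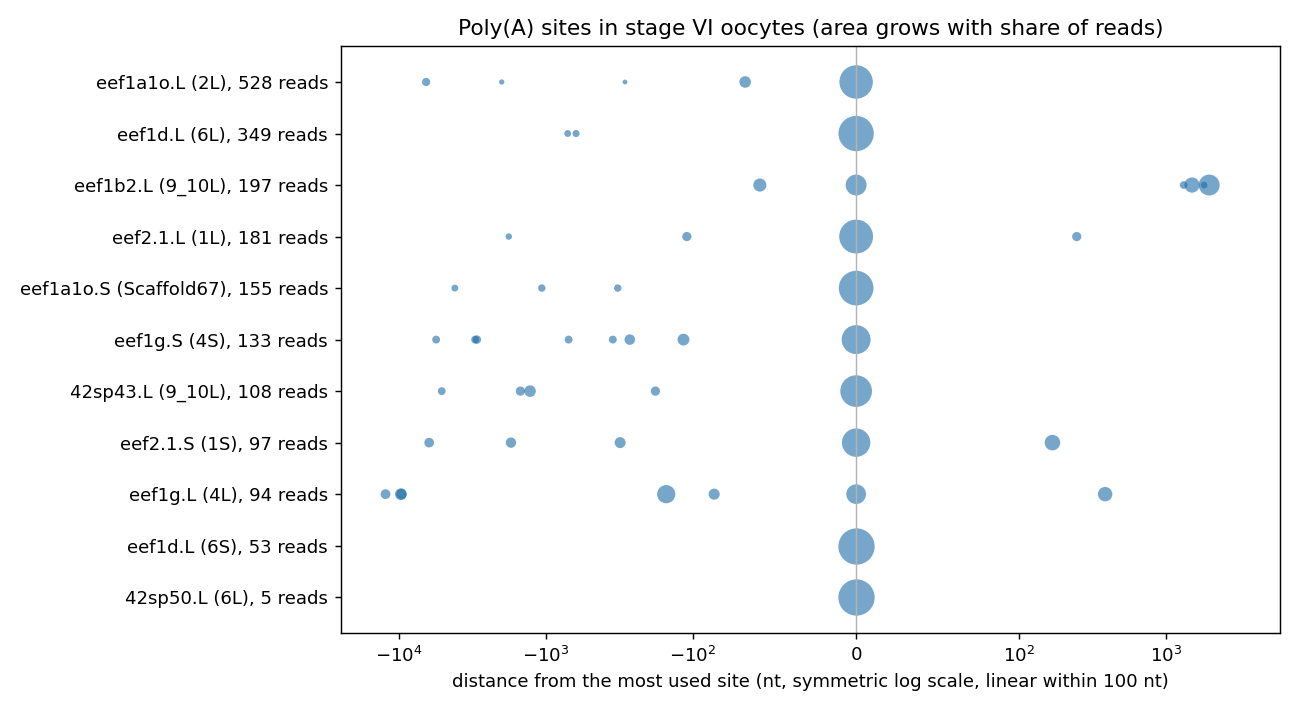
Distance of each poly(A) site from the most used site of its gene in nt (horizontal axis, symmetric log scale, upstream to the left along the strand column) for the 11 gene numbers (vertical axis, ordered by reads; where 2 sites tie, as in eef1b2.L, distances are from the upstream one). The area of a point grows with its share of the gene's reads. Single large points stand for eef1d.L, eef1a1o.L, eef1a1o.S and eef2.1.L, whereas eef1b2.L has equal points 1962 nt apart and eef1g.L has 7 small ones.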

How the data were processed

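The genes and lists were chosen with earlier results of these data known. Bowtie, Bowtie2, TopHat2 and Cufflinks are named, with no role, in the submitters' processing notes; the counting, the genome build and the filters are not given in the sources used here. The deposited polysome share is a fraction per the file headers, and the deposited RNA level, a score of unstated unit, is called a sum per the file headers. The authors' ratio columns equalled the quotient of their levels and the authors' mean shares equalled the mean of x and y, within rounding. The PAS-seq table gives a deposited read count per site. Columns were mapped by stage and suffix, x or y, and not to single libraries.

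Shares were fitted as log2 odds and levels as log2, without a pseudocount since none was 0, with limma 3.58.1 in R 4.3.3. The share model had stage only (residual degrees of freedom 5, prior 6.83). The level model had stage and column set (residual 4, prior 2.39) and left out 178 names listed more than once. Benjamini-Hochberg adjustment ran over all rows within each of 7 share and 4 level contrasts. Both fits were tested on simulated data, whose changes were larger than any in the main fits of the genes matching the name rule. The simulations therefore do not show how well changes of the size seen here are found. Named are all genes matching the name rule, list genes at the ends of the range or past the threshold, and the 3 profiles most like that of 42Sp43.L.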

Additional observations from a re-analysis of the deposited data

How the results depend on the processing

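No paired analysis was possible because the headers hold none of the labels' replicate numbers, so libraries could not be paired by them. The x and y suffix was used instead, as a term for levels and as the column-set block for shares, which called 2 of the 5 genes at MII in place of 0: eef1g.L (limma adjusted p 0.0202) and eef2.1.S (limma adjusted p 0.0253). Over all genes it called 1654 at MII, 1436 lower and 218 higher, against 284, 248 lower and 36 higher; median-centring gave 127 (20 lower, 107 higher) and quantile normalization 54 (10 lower, 44 higher). The difference between x and y at a stage correlated over genes between stages with a Pearson r of 0.17 to 0.45 over 10 pairs of stages. The 5 other planned share alternatives kept 0 calls among the 5 genes in all 7 contrasts. With these alternatives and with each left-out column the changes of the 5 genes at MII stayed below 0. Outside MII against stage VI the main fit, the block, median-centring and quantile normalization called 0 of all 6497 genes. A count of 0 was therefore fixed there. Counts over all genes are not given for the other alternatives. With 1 column left out, the change of eef1b2.L ran from -1.55 to -0.31, that of eef1g.L from -1.40 to -1.07, that of eef2.1.S from -1.66 to -1.20 and that of 42Sp43.L from -1.24 to -0.94.

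For levels, 0 of 9 names passed under any alternative that kept all columns. Counts over all names are not given with the lower quartile of levels left out or with the pseudocount. Median-centring called 587 names at MII, 324 lower and 263 higher, against 229, 157 lower and 72 higher, and leaving out the column-set term called 0. With 1 column left out, the MII change of 42sp43.L ran from -0.39 to 0.13 and that of eef1g.L from -0.15 to 0.16. ssb.L passed after median-centring, with the lower quartile of levels left out and with a pseudocount of 1 (limma adjusted p 0.0482, 0.0445 and 0.0453). The level filter left out eef2.1.L. A minimum of 10 reads per site left 24 of the 49 sites and 8 of 9 genes with more than 1. The share of all genes with more than 1 site at this minimum was not computed. With this minimum the main site held 89.1% in 42sp43.L and 97.1% in eef1d.L on 6L. The cause of these shifts was not tested. The 5 reads of 42sp50.L set no site preference.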
